A study of Mus musculus with 32 samples.

Results

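The SR proteins and the hnRNP proteins are the best known families of general splicing regulators, and the mRNA levels of their genes were described here in mouse blood progenitors with altered U2af1, which encodes a core splicing factor. Members were the protein-coding genes of the deposited count table whose symbol begins with Srsf and a number or with Hnrnp, plus Tra2a and Tra2b. The rule found 26 genes among 27728 in the table, of which 15444 were protein-coding. Some genes of these families, such as Srsf3, Srsf11, Hnrnpc and Hnrnpm, are not among the 26. Medians and sums over members are therefore not those of the whole families. They comprised 11 SR or SR-like genes (Srsf1, Srsf2, Srsf4, Srsf5, Srsf6, Srsf7, Srsf9, Srsf10, Srsf12, Tra2a and Tra2b) and 15 hnRNP genes (Hnrnpa0, Hnrnpa1, Hnrnpa2b1, Hnrnpab, Hnrnpd, Hnrnpdl, Hnrnpf, Hnrnph1, Hnrnph2, Hnrnph3, Hnrnpk, Hnrnpl, Hnrnpll, Hnrnpu and Hnrnpul1).

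SR proteins carry RNA-recognition motifs and a domain rich in arginine and serine repeats, and most bind enhancer sequences in exons, where they help U2AF and the U1 snRNP to recognise splice sites. hnRNP proteins coat nascent RNA, and several of them bind silencers and hinder the use of nearby sites, although both families also act in the opposite way depending on where they bind. Many SR and hnRNP genes regulate their own mRNA through alternative exons that lead to nonsense-mediated decay, so that a gene-level count adds up productive and unproductive transcripts. Splicing itself was not analysed here.

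The study measured total RNA, after removal of ribosomal RNA, in 32 libraries of 9 groups of lineage-negative, Kit-positive, Sca1-negative cells, a gate for committed myeloid and erythroid progenitors. The 15 fetal libraries came from E14.5 liver and carried a batch letter. In batch A, 3 flox control libraries were U2af1(flox/flox) with no Cre, 3 heterozygous deletion libraries were Vav1-Cre/U2af1(wt/flox), 3 homozygous deletion libraries were Vav1-Cre/U2af1(flox/flox), and 1 library carried Vav1-Cre alone. Batch B held 4 libraries of Vav1-Cre/U2af1(wt/S34F), which keep 1 wild-type allele beside the S34F allele, and 1 library of Vav1-Cre alone. Vav1-Cre is active across blood-forming cells, and a sorted fetal population can include cells in which deletion was incomplete. The 17 adult libraries came from bone marrow. All 17 carried Mx1-Cre, rTA and the transgene tgU2AF1(WT). Of these, 14 were U2af1(flox/S34F) and had received pIpC, which switches on Mx1-Cre and so removes the flox allele, and doxycycline in the chow at 1250 ppm (4 libraries), 2500 ppm (6 libraries) or 10000 ppm (4 libraries), which drives the transgene. The 3 adult controls were U2af1(wt/wt) and untreated. They differed from the dosed libraries in the U2af1 alleles, pIpC and doxycycline at once, so those differences cannot be told apart. U2af1 itself was not analysed here.

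Library totals ran from 26588099 to 71251200 counts. All 5 progenitor markers listed (Kit, Ptprc, Cd34, Myb and Gata2) were present, with summed levels of 1942 to 3085 CPM (read counts scaled to the TMM-adjusted library size) in every library. Their sum hides shifts of single markers in the homozygous deletion, which are given beside that result. The 10000 ppm replicate 2 stood apart by its T cell markers (6.59 CPM in sum against 0.163 to 0.648 in the other 3 libraries of its group). It also stood apart by its erythroid markers (300.3 against 21.2 to 50.1 CPM). The counts of calls and the values named at that dose are therefore also given without replicate 2. Replicate 1 shared its high myeloid sum (282.6 and 341.1 CPM in replicates 1 and 2, at most 71.3 CPM in replicates 3 and 4). The B cell sum split the same way (423.6 and 530.0 CPM against at most 280.3 CPM). Leaving out replicate 2 alone thus keeps another library with high myeloid markers in the group. Nothing in the labels says that replicates were separate animals, so p-values measure the spread between these samples, which may be technical.

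The promoters of 4 members named in the results below are shown as examples. Srsf9 and Hnrnpa0 fell together between the lowest and the highest dose. Tra2a and Tra2b are close paralogs, of which only Tra2a passed the test in the homozygous deletion. Each is the 250 bases before the RefSeq start (RefSeq, GRCm38.p6), read 5′ to 3′ on the strand of the gene. Capitals mark the CCAAT box (CCAAT) and the GC box (GGGCGG) on either strand. Srsf9 is at chr5:115326927-115327176 on the plus strand, Hnrnpa0 at chr13:58128557-58128806, Tra2a at chr6:49264053-49264302 and Tra2b at chr16:22266006-22266255, these 3 on the minus strand.
Srsf9: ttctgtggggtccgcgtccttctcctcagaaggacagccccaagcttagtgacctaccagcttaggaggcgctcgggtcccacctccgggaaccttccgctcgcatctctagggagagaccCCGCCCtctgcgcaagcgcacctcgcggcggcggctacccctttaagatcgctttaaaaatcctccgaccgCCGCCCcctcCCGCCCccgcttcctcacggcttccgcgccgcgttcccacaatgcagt
Hnrnpa0: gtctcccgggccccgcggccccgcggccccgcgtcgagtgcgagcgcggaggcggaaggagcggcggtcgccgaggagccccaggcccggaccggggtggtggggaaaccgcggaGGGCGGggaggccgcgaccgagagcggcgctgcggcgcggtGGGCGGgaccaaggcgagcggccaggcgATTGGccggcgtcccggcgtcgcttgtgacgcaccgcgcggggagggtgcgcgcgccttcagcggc
Tra2a: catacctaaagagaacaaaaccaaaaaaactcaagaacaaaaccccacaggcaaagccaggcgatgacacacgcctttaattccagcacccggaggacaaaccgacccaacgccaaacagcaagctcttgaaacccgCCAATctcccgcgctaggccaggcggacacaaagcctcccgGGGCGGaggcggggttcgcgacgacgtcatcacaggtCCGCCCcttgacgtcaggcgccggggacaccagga
Tra2b: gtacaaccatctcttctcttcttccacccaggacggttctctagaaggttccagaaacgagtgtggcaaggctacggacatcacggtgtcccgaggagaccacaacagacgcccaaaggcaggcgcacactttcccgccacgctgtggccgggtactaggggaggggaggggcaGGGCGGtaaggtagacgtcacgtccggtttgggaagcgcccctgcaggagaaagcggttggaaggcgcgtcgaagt

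A RefSeq promoter was found for 25 of the 26 members, all but Hnrnpll, with 35 windows in all because some genes have several starts. The GC box, the GC-rich letters that Sp-family factors can bind, was in 30 of these 35 windows (85.7%), against 50% of 14886 windows of protein-coding genes in the table and 32.7% of all 32851 windows. The TATA box (TATAAA) was in 1 of 35 member windows (2.9%), against 8.6% of the protein-coding windows. CCAAT was in 17 of 35 windows (48.6%), against 34.1% of the protein-coding windows, the ETS core (CCGGAAG) in 7 (20% against 10.2%) and the E-box (CACGTG) in 2 (5.7% against 7.4%). Windows of 1 gene can overlap and hold the same match, so the 35 windows are not independent. By gene, of 25 members, the GC box was in 23, CCAAT in 13, the ETS core in 5, the E-box in 2 and the TATA box in 1. A share by gene over all genes is not given. All motifs were searched on both strands, and a match is a description of the letters only. Of the promoters shown, Srsf9 holds 3 GC boxes, Hnrnpa0 and Tra2a 2 each and Tra2b 1, and Hnrnpa0 and Tra2a also hold 1 CCAAT box each.

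Levels between members were compared per kilobase of merged exon. Over the 32 libraries the highest median was that of Hnrnpab, an RNA-binding protein related to Hnrnpd, at 398 CPM per kb. It was followed by Hnrnpa1 (319.5), the best studied splicing silencer factor, Srsf2 (237), a classical SR protein, Hnrnpa0 (229) and Hnrnpa2b1 (216). Srsf12 was lowest, with a median of 0.0182 CPM per kb and 0 to 12 counts per library, and 8 of the 32 libraries had none. Above it came Hnrnpll (10.7), which in lymphocytes controls Ptprc exons, Hnrnph3 (12.7), Tra2a (24.0) and Srsf10 (26.7). Srsf12 passed the filter on low counts only in the fit with all fetal libraries, so other tests cover 25 members. The summed level of all members was 13512 to 19169 CPM in the fetal libraries and 11456 to 14177 CPM in the adult ones. The 2 ranges overlapped, and tissue, age, alleles and batch all differ between them, so no test was made.

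**Figure D1:**
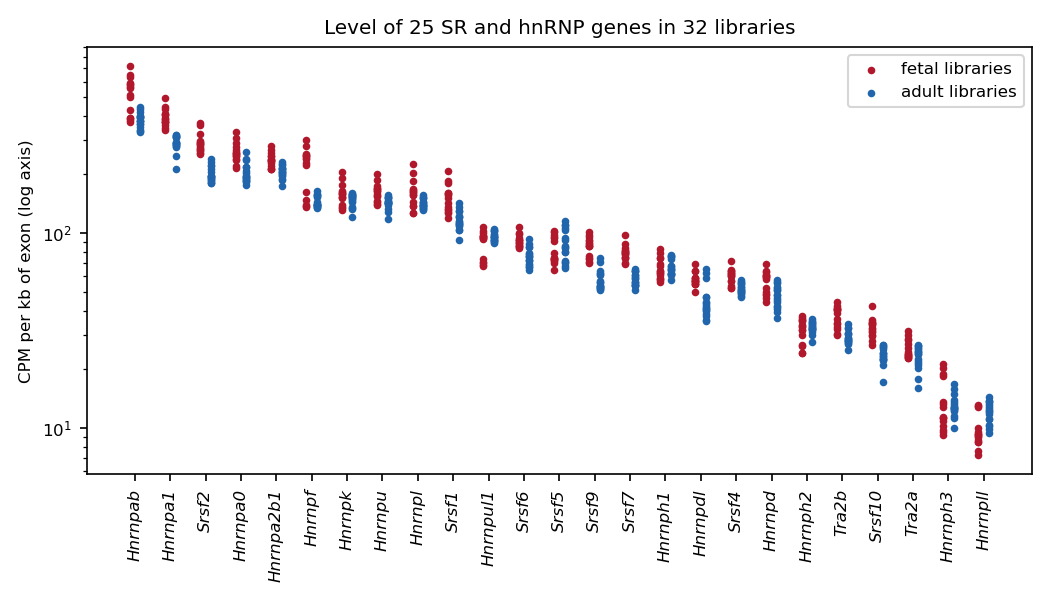
Level of each member in CPM per kb of merged exon (log axis) in every library, with fetal libraries in red and adult ones in blue and genes ordered by median; Srsf12, at or near 0, is left out. Medians span from 10.7 in Hnrnpll to 398 in Hnrnpab.

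Deletion of both U2af1 alleles was set against the flox controls of the same batch, to ask how progenitors that lack intact U2af1 differ. Most SR and hnRNP transcripts that changed were modestly more abundant in the homozygous deletion. Of 25 members tested with edgeR, 13 were called at an adjusted p under 0.05, with 11 higher and 2 lower, where 41.0% of all 12678 genes tested were called (18.5% higher and 22.4% lower). Thus 52.0% of members were called, not far from the share among all genes, and the called members leaned to the higher side. The median log2 fold change was 0.15 in both families and -0.02 over all genes. These changes are relative to TMM scaling, whose factors for the printed CPM differed between the groups. They were 0.958, 0.989 and 0.992 in the flox controls and 0.893, 0.879 and 0.948 in the homozygous deletion. The median size of change without its sign was 0.18 in members and 0.30 in all genes. In bulk samples, fewer cells of a type and less RNA per cell cannot be told apart.

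Among SR genes, 4 of 10 rose and none fell. Tra2a, a sequence-specific activator that binds purine-rich enhancers, was at 158, 161 and 163 CPM in the flox controls, 163, 170.1 and 164 CPM in the heterozygous and 209, 198 and 218 CPM in the homozygous deletion. All 3 homozygous libraries lay above all 6 others, and the log2 fold change over the flox controls was 0.36 ± 0.06, adjusted p = 0.00101. Srsf1, the founding SR protein, was at 920.0, 916 and 905 CPM in the flox controls, 898, 780.2 and 811 in the heterozygous and 1184, 1031 and 1057 in the homozygous deletion (0.24 ± 0.07, adjusted p = 0.0165). Srsf2, which is itself a recurrent target of mutation in myeloid neoplasms, was at 883, 863 and 851 CPM, 870.0, 777 and 809 CPM and 1063, 1081 and 955 CPM in the same order (0.24 ± 0.06, adjusted p = 0.00706). For both genes the homozygous range did not overlap the others. Srsf6 also rose (0.18 ± 0.06, adjusted p = 0.0304). The 6 SR genes that were not called had log2 fold changes between -0.02 (Srsf5) and 0.17 (Srsf7).

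Among hnRNP genes, 7 of 15 rose and 2 fell. Hnrnpll was at 108, 112 and 117 CPM in the flox controls, 106, 106 and 108 in the heterozygous and 149, 154 and 151 in the homozygous deletion, a rise of 0.41 ± 0.05, adjusted p = 0.000227. Its 3 homozygous libraries lay close together and above all 6 others. Hnrnpl, its paralog, which binds CA-rich RNA, was at 1008, 964 and 975, 992, 938 and 939 and 1345, 1205 and 1098 CPM in these groups (0.29 ± 0.07, adjusted p = 0.00533). Hnrnpk, a binder of C-rich RNA, was at 1065, 1039 and 1022 CPM in the flox controls and 1333, 1245 and 1142 CPM in the homozygous deletion (0.23 ± 0.06, adjusted p = 0.00879). Among the hnRNP A/B group, Hnrnpa2b1 was at 1560.1, 1411 and 1448 CPM against 1852, 1688 and 1757 CPM (0.24 ± 0.06, adjusted p = 0.0108). Hnrnpa0 was at 701, 682 and 693 CPM against 822, 881 and 778 CPM (0.24 ± 0.05, adjusted p = 0.00553). These 4 genes had no overlap between the homozygous deletion and the flox controls. The share of all genes without overlap is not given for this comparison, so this describes the libraries and adds no further support. Hnrnpab and Hnrnpa1 rose by 0.22 and 0.19 on the log2 scale.

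The 2 members that fell were Hnrnpd and Hnrnph3. Hnrnpd, also known as AUF1, a regulator of the decay of AU-rich mRNA, was at 465, 442 and 438 CPM in the flox controls and 358, 325 and 343 CPM in the homozygous deletion (-0.41 ± 0.06, adjusted p = 0.000351). The heterozygous libraries were between, at 385, 354 and 367 CPM, and overlapped the homozygous ones. Hnrnph3, a short member of the hnRNP H/F group, was at 40.5, 35.3 and 35.9 CPM in the flox controls, 35.3, 34.3 and 32.3 in the heterozygous and 30.7, 30.2 and 29.1 in the homozygous deletion (-0.33 ± 0.07, adjusted p = 0.00331). Exons of Hnrnph3 overlap those of Rufy2 on the other strand, and the use of strand in counting is not stated, so reads of these genes cannot be told apart. Rufy2 averaged 9.34 CPM against 41.7 CPM for Hnrnph3 and moved the same way (-0.60 ± 0.17, adjusted p = 0.0159).

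**Figure D2:**
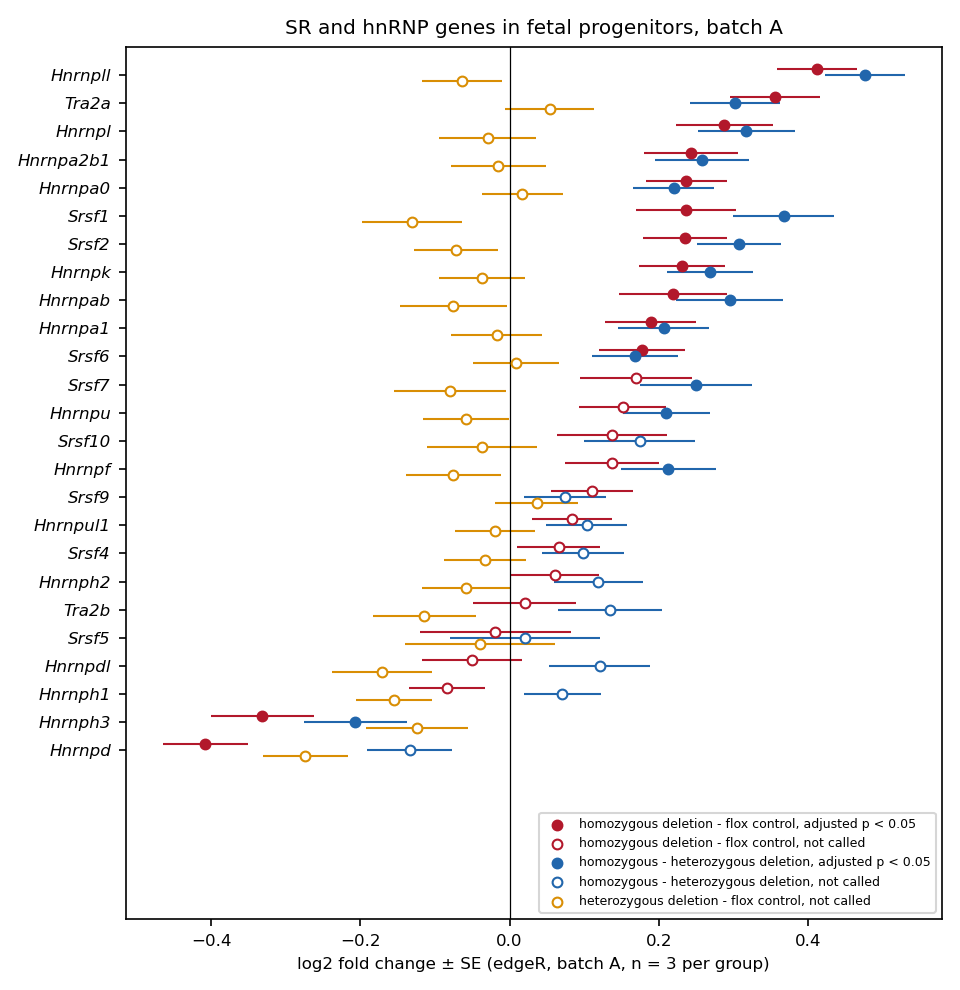
Log2 fold change with its standard error for 25 members in 3 comparisons of batch A (3 libraries per group), with filled points at an adjusted p under 0.05. The homozygous deletion differs from both other groups mostly to the right of 0, whereas no heterozygous point is filled.

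Markers of the gate and of other cells moved with this comparison. Of the 5 progenitor markers, Kit fell (484 to 569 CPM in the flox controls and 234 to 321 in the homozygous deletion), Cd34 fell (417 to 493 and 207 to 349 CPM) and Gata2 rose (259.8 to 279.6 and 504 to 521 CPM), each with no overlap. Of 12 hepatocyte markers, 10 were in the table, and they summed to 103 to 567 CPM in the flox controls, 53.1 to 120.3 in the heterozygous and 16.8 to 38.3 in the homozygous deletion, and 9 of 10 were lower. Macrophage markers (5 of 6 lower, and Vcam1 higher) summed to 80.6 to 90.1 CPM in the flox controls and 38.4 to 60.2 CPM in the homozygous deletion, and megakaryocyte markers (3 of 3 tested lower) to 94.2 to 158.7 and 48.6 to 64.9 CPM. The summed erythroid markers (2 of 3 tested lower) were at 339 to 484 and 175 to 193 CPM.

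Of 4 B cell markers 3 were lower. Their sum, 169.9 to 266 CPM in the flox controls and 160.5 to 183 in the homozygous deletion, was mostly Ptprc, which most white blood cells share, whereas Pax5, the B cell transcription factor, was at 11.2 to 33.5 and 0.0353 to 0.0611 CPM. The T cell list summed to 0.945 to 1.26 and 0.0860 to 0.275 CPM, and its 1 tested marker, Cd3g, was lower. Of 3 myeloid markers, Ly6g was higher and Adgre1 lower, with sums of 42.7 to 62.8 and 38.1 to 54.5 CPM. The markers at 0 in all 3 libraries of a group were Cd8a in the flox controls and Cd3e and Cd8a in the homozygous deletion. The part of these cells in the result was not tested, and the hepatocyte fit below cannot settle it for hepatocytes.

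The mean log2 CPM of the hepatocyte markers was 2.62, 4.94 and 4.35 in the flox controls and 1.09, 0.20 and -0.69 in the homozygous deletion. With no overlap between these groups, a fit with this score as a term cannot separate it from the deletion. Lost calls in that fit therefore do not show the part of hepatocytes. With the term added, 1 member stayed called against the flox controls, Hnrnpll, and the share of all genes called is not given. The other 12 kept their direction with wider errors: the 10 higher ones had log2 fold changes of 0.20 to 0.42, Hnrnpd one of -0.41 and Hnrnph3 one of -0.44, with standard errors of 0.11 to 0.15 and adjusted p of 0.0591 to 0.332. Leaving out 1 library ended the calls of Srsf6, Hnrnpa1 and Hnrnpab (flox control replicate 4 or 5, or homozygous replicate 2, and for Hnrnpab also homozygous replicate 4), Hnrnpa2b1 (flox control replicate 4) and Srsf1 (flox control replicate 5). The calls of Srsf6 and Hnrnpa1 also ended with no filter on low counts and with only the compared groups in the fit. The other 8 kept their calls without any 1 library.

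The same homozygous libraries were set against the heterozygous deletion, where both groups carry Vav1-Cre. Here 15 of 25 members were called, 14 higher and 1 lower, where 42.3% of all genes were called (19.8% higher and 22.4% lower). The 2 comparisons share the homozygous libraries, so their likeness is not independent. Hnrnpll differed by 0.48 ± 0.05, adjusted p = 9.48e-05, Srsf1 by 0.37 ± 0.07, adjusted p = 0.00149 and Hnrnpl by 0.32 ± 0.07, adjusted p = 0.00291. Srsf2 (0.31), Tra2a (0.30), Hnrnpk (0.27) and Hnrnpa2b1 (0.26) were also higher. Hnrnpab was at 1647, 1385 and 1419 CPM in the heterozygous and 1995, 1760.4 and 1807 CPM in the homozygous deletion (0.29 ± 0.07, adjusted p = 0.00762). The remaining higher calls were Srsf7, Hnrnpa0, Hnrnpf, Hnrnpu, Hnrnpa1 and Srsf6, at 0.17 to 0.25. Hnrnph3 was the member that fell (-0.21 ± 0.07, adjusted p = 0.0326), and Hnrnpd was at -0.13 ± 0.06, adjusted p = 0.0825. With the hepatocyte term 13 members were called, without Srsf6 and Hnrnph3. Without heterozygous replicate 4 the count was 9. For these fits the share of all genes called is not given, so the counts are not read as a change in the members alone.

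Single members in this comparison also rested on 1 library. Leaving out heterozygous replicate 4, heterozygous replicate 5 or homozygous replicate 2 each ended the calls of Srsf6, Srsf7, Hnrnpf and Hnrnpa1, and heterozygous replicate 4 also that of Hnrnpu. The call of Hnrnph3 ended without heterozygous replicate 3 or 4 or any of the 3 homozygous libraries. It also ended with RLE factors, and those of Hnrnph3 and Srsf6 ended with no filter on low counts. Markers moved here as well: Kit and Cd34 fell and Gata2 rose (from 336 to 354 CPM in the heterozygous to 504 to 521 CPM in the homozygous deletion), 5 of 6 macrophage, 3 of 4 B cell, 4 of 10 hepatocyte and 2 of 3 megakaryocyte markers and the T cell marker Cd3g were lower, Vcam1 was higher, and of 3 myeloid markers 2 were higher and 1 lower. The summed levels in the heterozygous libraries were 41.9 to 64.1 CPM for macrophage, 202.1 to 211 for B cell, 112 to 114 for megakaryocyte and 34.1 to 41.3 for myeloid markers, beside the homozygous sums given above. Of these lists only the hepatocyte one was added to a fit. Its mean log2 CPM did not overlap here either (1.51 to 2.88 in the heterozygous and -0.69 to 1.09 in the homozygous deletion). That fit cannot separate it from the deletion, and the part of the other lists was not tested.

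The heterozygous deletion differed little from the flox controls. None of the 25 members was called by edgeR with its filter on low counts, where 0.0316% of all genes were. An unadjusted p under 0.05 was seen in 3 members, where 8.83% of all genes had one. DESeq2 called 1 member, Hnrnpd, and so did edgeR with no filter on low counts. The share of all genes called in those fits is not given. The 3 members with the smallest p were hnRNP genes, and all 3 had heterozygous values below every flox control. Hnrnpd was at -0.27 ± 0.06, adjusted p = 0.353. Hnrnph1, an activator that binds G-rich RNA, was at 394, 365 and 363 CPM in the flox controls and 339, 336 and 327 CPM in the heterozygous deletion (-0.15 ± 0.05, adjusted p = 0.419). Hnrnpdl, a paralog of Hnrnpd, was at 308, 282 and 284 and 242, 265 and 265 CPM (-0.17 ± 0.07, adjusted p = 0.507). The log2 fold change was below 0 in 21 of the 25 members, with a median of -0.06 against 0.00 over all genes. None of the hepatocyte markers was called here (0 of 10), and their summed ranges, given above, overlapped. No tested marker of the other lists was called either, but some were apart. Macrophage sums were 80.6 to 90.1 CPM in the flox controls and 41.9 to 64.1 in the heterozygous deletion, and myeloid sums 42.7 to 62.8 and 34.1 to 41.3. Gata2 was at 259.8 to 279.6 and 336 to 354 CPM, and Myb at 943 to 991 and 1017 to 1072. B cell, T cell, erythroid and megakaryocyte sums overlapped. The part of these cells was not tested. With the hepatocyte term no member was called, and Hnrnpd was at -0.27.

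**Figure D3:**
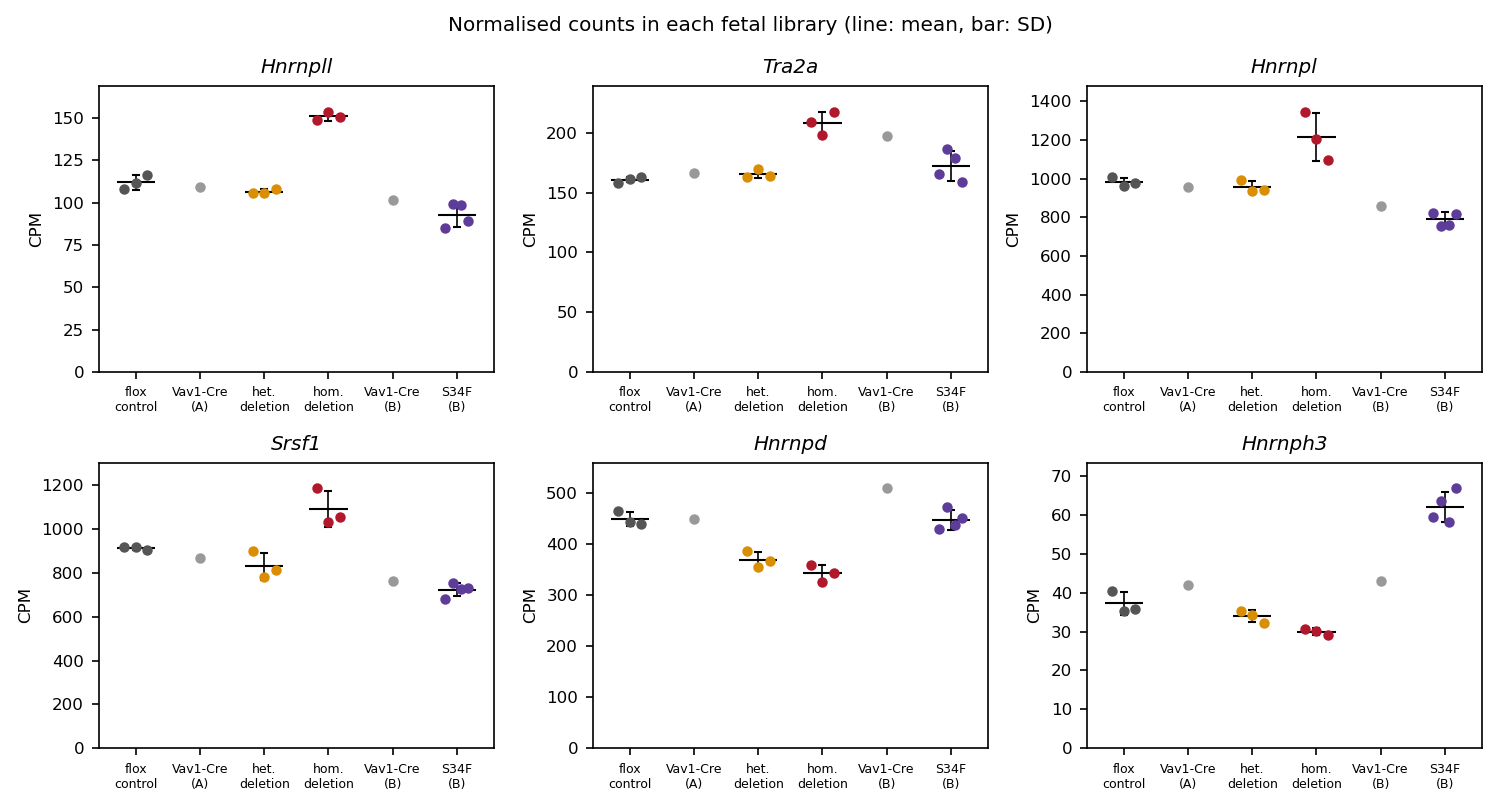
CPM of 6 members in each fetal library, with mean and SD for groups of more than 1, batch A in the first 4 columns and batch B in the last 2. The homozygous libraries lie highest within batch A for Hnrnpll, Tra2a, Hnrnpl and Srsf1, and the S34F libraries lie above their single control for Hnrnph3.

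Paralogs were compared within each library by the log2 ratio of their CPM, for 8 pairs in the homozygous deletion and in the dose comparison. Tra2a over Tra2b was -1.31, -1.23 and -1.14 in the flox controls and -0.97, -0.91 and -0.78 in the homozygous deletion, a shift of 0.33 with no overlap. Hnrnpd over Hnrnpdl was 0.59, 0.65 and 0.62 against 0.22, 0.24 and 0.32, a shift of -0.36 with no overlap. Smaller shifts with no overlap were those of Hnrnph2 over Hnrnph1 (0.15) and Srsf6 over Srsf4 (0.11). The shift of Hnrnpll over Hnrnpl was 0.13, and the values overlapped. In two-sided exact permutation tests these 4 shifts without overlap each had p = 0.10, the smallest that 3 libraries against 3 allow, and an adjusted p of 0.32 over the 16 tests. No pair of the 8 passed in the dose comparison either, where the smallest p was 0.0857 for Hnrnph2 over Hnrnph1, in an exact permutation test. Without 10000 ppm replicate 2, a setting chosen after seeing the data, it was 0.171 for the same pair.

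Other lists of partners were read in the homozygous deletion against the flox controls. Of 16 hnRNP proteins with other symbols, 14 were in the table, and 4 were higher and 3 lower. Ptbp1, the polypyrimidine tract binder that represses exons, rose (0.42 ± 0.06, adjusted p = 0.0004), as did Ptbp3 (0.38) and Pcbp4 (0.34), and Pcbp3 (-1.17) and the cold-induced Rbm3 (-0.30) fell. Of 12 kinases and import receptors of SR proteins, 9 were tested, with 3 higher and 3 lower. The kinase Clk4 rose by 0.50, the import receptor Tnpo1 by 0.32 and the kinase Dyrk1a by 0.16, whereas the kinase Prpf4b fell by 0.33, Tnpo2 by 0.25 and Srpk1 by 0.19 on the log2 scale. Of 22 SR-related proteins, 5 were higher and 4 lower. Rbm39, a U2AF-like cofactor, rose by 0.73 ± 0.06, adjusted p = 2.03e-05, a value above that of every SR or hnRNP member. Luc7l (0.50) and Nktr (0.38) rose as well, and Scaf4 (-0.47), Bclaf1 (-0.45) and Rsrc1 (-0.35) fell. The shares called in these lists (7 of 14, 6 of 9 and 9 of 22) are read against 41.0% of all genes.

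In batch B, the S34F allele was compared with its single Vav1-Cre control, a library assumed to vary like the other fetal groups. Of 26 members tested 1 was called, Hnrnph3, where 0.295% of all 14938 genes were, and 0.0335% were higher. Hnrnph3 was at 59.3, 63.7, 58.2 and 66.8 CPM in the S34F libraries and 43.0 CPM in the control, so that all 4 lay above it, with a log2 fold change of 0.54 ± 0.10, adjusted p = 0.0327. Its antisense neighbour Rufy2 was at 0.53 ± 0.20 (adjusted p = 0.318). The Hnrnph3 call was lost on leaving out any 1 of the 4 S34F libraries, with 0 members called each time. Hnrnpdl, at 284, 278, 264 and 269 CPM against 335 (-0.28 ± 0.08, adjusted p = 0.208), and Hnrnpk, at 852, 878, 869 and 902 CPM against 1030.1 (-0.23 ± 0.07, adjusted p = 0.233), had the next smallest p. Both lay below the control in all 4 libraries, and DESeq2 called Hnrnpk lower as well as Hnrnph3 higher.

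All 4 S34F libraries lay below the control in 18 of 26 members, where 28.0% of all genes did so, and above it in 3, where 26.9% did. Because 1 control library sets all of these comparisons, an unusual value in it would move every member at once, and this was not tested. The summed level of the members was 13512 to 13978 CPM in the S34F libraries and 14677 CPM in the control. Among the marker lists 1 gene was called, Pax5, which was lower (5.44 to 6.90 CPM in the S34F libraries and 24.6 CPM in the control), and its part in these values was not tested. Hnrnph3 was lower in the homozygous deletion of batch A and higher with S34F in batch B, 2 comparisons with different controls whose difference was not tested.

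**Figure D4:**
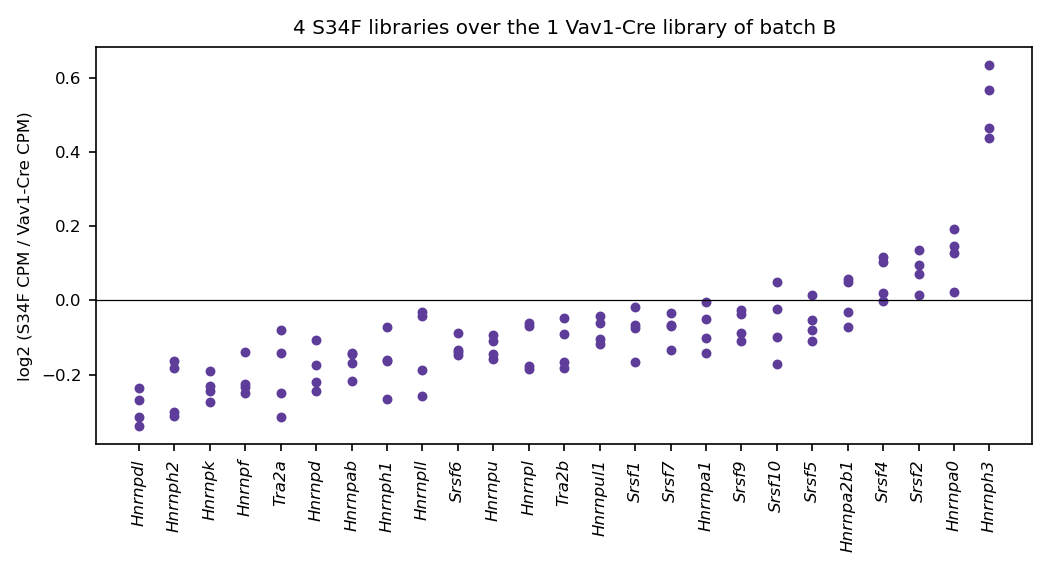
Log2 ratio of the CPM of each S34F library (4 points per gene) to the single Vav1-Cre library of batch B, ordered by mean, for 25 members without Srsf12. Hnrnph3 stands highest and most members lie below 0.

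In adult marrow, 7 SR and hnRNP transcripts were lower at the highest than at the lowest dose of doxycycline. They were 7 of 25 members tested by edgeR between 10000 and 1250 ppm, with none higher, where 18.1% of all 13338 genes were called and 10.6% were lower. The log2 fold change was below 0 in 24 of 25 members, with a median of -0.18 against 0.02 over all genes. It was below 0 in 23 of 25 without 10000 ppm replicate 2, with a median of -0.15 against 0.01. Srsf9, a small SR protein close to Srsf1, was at 92.7, 84.6, 88.7 and 86.8 CPM at 10000 ppm and 118, 103, 106 and 123 CPM at 1250 ppm (-0.37 ± 0.07, adjusted p = 0.00567). Hnrnpa0, a single-exon hnRNP A gene that stabilises AU-rich mRNA, was at 526, 522, 488 and 527 CPM and 646, 582, 635 and 695 CPM (-0.33 ± 0.07, adjusted p = 0.00695). Neither gene overlapped between the doses, and the share of all genes that lay lower without overlap is not given.

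Srsf1 was at 637, 529, 647 and 637 CPM at 10000 ppm and 776, 738, 744 and 813 CPM at 1250 ppm (-0.34 ± 0.08, adjusted p = 0.00989). Tra2b, the more abundant Tra2 gene per kilobase, was at 260.0, 232, 257 and 251 and 315, 281, 303 and 301 CPM (-0.28 ± 0.06, adjusted p = 0.00673). Srsf10, which can act as a repressor when dephosphorylated, was at 158, 119.9, 158 and 159.6 CPM against 188, 186, 182 and 165 CPM (-0.29 ± 0.09, adjusted p = 0.031). In all 3 genes the doses did not overlap, and replicate 2 was the lowest of the 10000 ppm group. Hnrnpa2b1 was at 1309, 1147, 1331 and 1245 CPM and 1354, 1482, 1412 and 1529 CPM (-0.22 ± 0.07, adjusted p = 0.0434). Hnrnpl was at 817, 782, 835 and 829 CPM and 906, 863, 915 and 937 CPM (-0.17 ± 0.05, adjusted p = 0.0438). These last 2 were separated by narrow gaps, and their calls ended without any 1 library of either dose.

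Without the 10000 ppm replicate 2 the count was 4, made up of Srsf9 (-0.35), Hnrnpa0 (-0.34), Srsf1 (-0.28) and Tra2b (-0.25), where 10.3% of all genes were called, and it was also 4 without the 1250 ppm replicate 1, 3 or 4. The call of Srsf10 ended without 10000 ppm replicate 2 or 3 as well as in those 3 cases. With the 2 dose groups alone in the fit, 2 members were called, Srsf9 and Hnrnpa0. The calls of Hnrnpa2b1, Hnrnpl and Srsf10 also ended with no filter on low counts or without genes over 1% of a library, the first 2 with RLE factors, and that of Hnrnpl with a mean of at least 50 counts. Markers of other cells moved with the dose: 2 of 3 myeloid, 2 of 3 megakaryocyte and 1 of 3 erythroid markers, Cd3g of the T cell list and Kit of the gate were higher at 10000 ppm. The summed myeloid, megakaryocyte and erythroid levels were 27 to 341 against 39.8 to 46.8 CPM, 78.2 to 271 against 46.3 to 88.2 CPM, and 21.2 to 300.3 against 9.41 to 33.1 CPM, and their part in the result was not tested. The hepatocyte markers Alb, Ttr, Fgb, Fga and Fgg were at 0 in all adult libraries.

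Srsf5 ran the other way. This SR gene, whose mRNA responds early to growth signals, was at 272, 285, 318 and 318 CPM at 1250 ppm and 414, 460.3, 340.2 and 334 CPM at 10000 ppm, a difference of 0.36 ± 0.14, adjusted p = 0.0857, which did not pass. Leaving out 10000 ppm replicate 2, its highest library, gave 0.26 ± 0.14, adjusted p = 0.248. It was the 1 member whose 10000 ppm libraries all lay above those at 1250 ppm, where 7.83% of all genes did so. At 2500 ppm it had a lowest value of 264, a median of 313 and a highest value of 422 CPM, the widest spread of the 3 doses.

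At 2500 ppm, Srsf9 and Hnrnpa0 were again below their 1250 ppm levels. Against 1250 ppm, 2 of 25 members were called, both lower, where 1.91% of all genes were called and 1.36% were lower. Srsf9 had a lowest value of 86.1, a median of 91.4 and a highest value of 102 CPM (-0.28 ± 0.07, adjusted p = 0.0465), and Hnrnpa0 had a lowest value of 495, a median of 530.5 and a highest value of 582 CPM (-0.27 ± 0.06, adjusted p = 0.0452), and both highest values were just below the lowest 1250 ppm value. Srsf2 had the next smallest p, at 662, 607, 687 and 714 CPM at 1250 ppm and with a lowest value of 535, a median of 560.0 and a highest value of 584 CPM at 2500 ppm (-0.26 ± 0.07, adjusted p = 0.052). Both calls ended with RLE factors or no filter on low counts, that of Srsf9 also without genes over 1% of a library. Both ended too without 1250 ppm replicate 1, 4 or 5 or 2500 ppm replicate 1, 2, 5 or 6, with 0 members called, and without 2500 ppm replicate 4 the count was 5. Between 10000 and 2500 ppm no member was called, as no gene in the table was (0%), and 1 member had an unadjusted p under 0.05, where 10.8% of all genes did. That was Hnrnph3, at 40.0, 31.4, 39.3 and 39.2 CPM at 10000 ppm, with a lowest value of 38.5, a median of 43.4 and a highest value of 53.2 CPM at 2500 ppm (-0.25 ± 0.10, adjusted p = 0.377). Srsf5 (0.24 ± 0.13, adjusted p = 0.505) and Srsf10 (-0.15 ± 0.08, adjusted p = 0.519) had the next smallest p, and in all 3 the doses overlapped. Without 10000 ppm replicate 2 the differences were -0.17 for Hnrnph3, 0.14 for Srsf5 and -0.06 for Srsf10, and no member had an unadjusted p under 0.05.

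A slope on log2 dose over the 14 dosed libraries called 3 members, all falling, where 10.7% of all 12849 genes were called and 5.32% fell. Per doubling of dose, Srsf9 fell by 0.10 (adjusted p = 0.0388), Srsf1 by 0.09 (adjusted p = 0.0437) and Tra2b by 0.07 (adjusted p = 0.0388) on the log2 scale. Srsf5 had a slope of 0.13 (adjusted p = 0.0726) and Hnrnpa0 one of -0.08 (adjusted p = 0.0576). The group means fell in order from 1250 through 2500 to 10000 ppm in 15 of 25 members, where 27.4% of all genes did so, and rose in order in 1, where 29.1% did. They fell in order in 10 of 25 without 10000 ppm replicate 2, where 25.8% of all genes did so. The order reuses the libraries of the pairwise comparisons. The count of called slopes was 0 without 10000 ppm replicate 1 or 2, any 1250 ppm library or 2500 ppm replicate 3. Without 10000 ppm replicate 2, the share of all genes called was 0.666%. The count of members was 1 without 2500 ppm replicate 2, 4 or 6, and 6 without 10000 ppm replicate 4. The slopes of Srsf1 and Tra2b also lost their calls with no filter on low counts or without genes over 1% of a library, and that of Srsf9 with a mean of at least 50 counts.

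**Figure D5:**
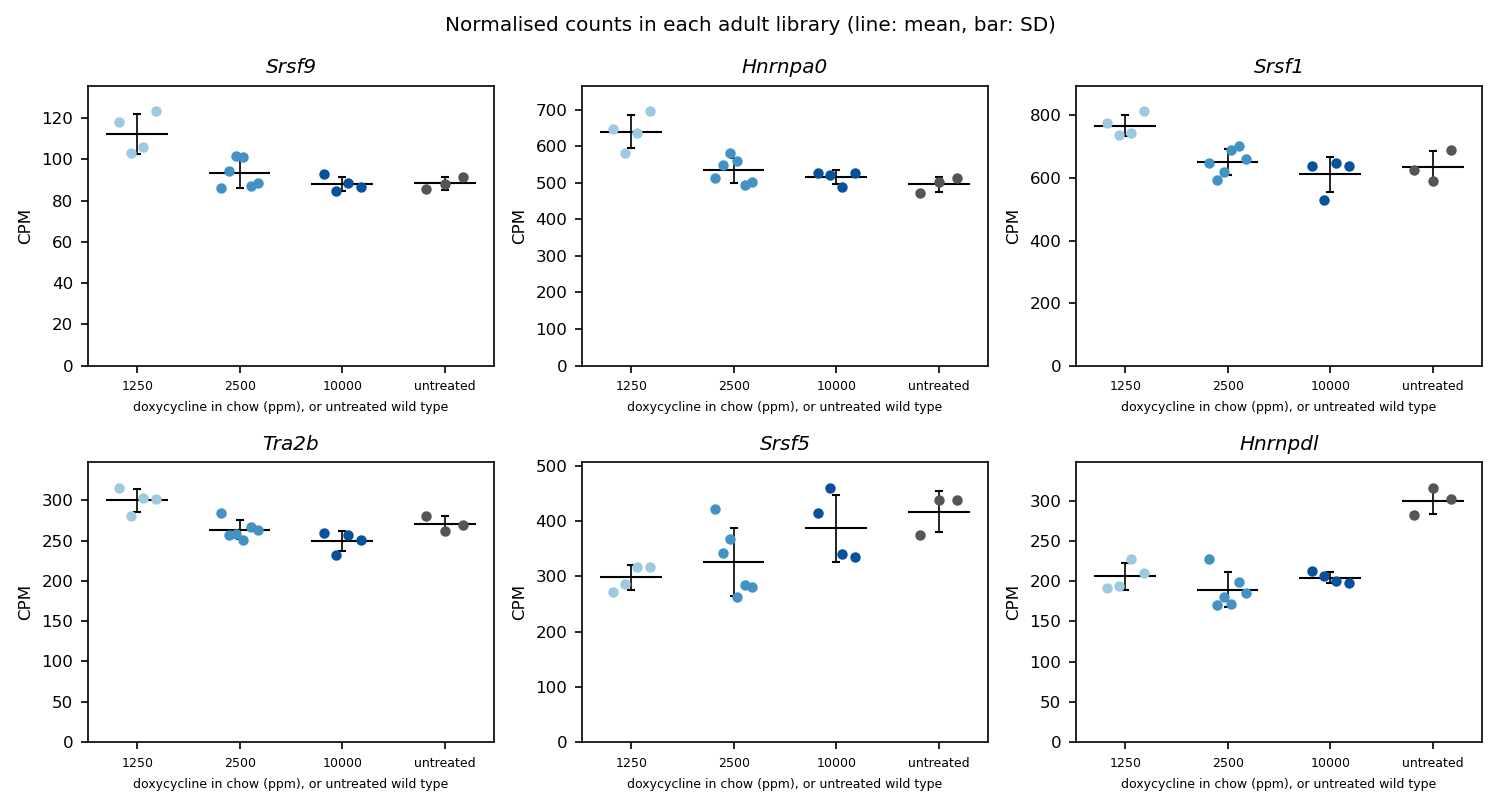
CPM of 6 members in each adult library by doxycycline dose and in untreated wild type, with mean and SD. Srsf9, Hnrnpa0, Srsf1 and Tra2b are highest at 1250 ppm, and Hnrnpdl is higher in all 3 untreated libraries than in the 14 dosed ones.

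Each dose was also set against the 3 untreated wild-type libraries, which all 3 comparisons share. Hnrnpdl was called lower at each dose. It was at 282, 316 and 302 CPM in the untreated libraries, 191, 194, 227 and 210.2 CPM at 1250 ppm and 213, 206, 201 and 197 CPM at 10000 ppm, and at 2500 ppm it had a lowest value of 169.9, a median of 183 and a highest value of 228 CPM. No dosed library reached the untreated range. The log2 fold changes were -0.54 ± 0.09, adjusted p = 0.00806 at 1250 ppm, -0.67 ± 0.09, adjusted p = 0.00832 at 2500 ppm and -0.57 ± 0.09, adjusted p = 0.0225 at 10000 ppm. The first held without any 1 library. The second ended without untreated replicate 2, and the third without untreated replicate 2 or 3.

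At 1250 ppm, 5 of 25 members were called against wild type, 3 higher and 2 lower, where 11.4% of all genes were called (6.76% higher and 4.66% lower). The untreated levels of the 3 that rose were like those at the higher doses. Hnrnpa0 was at 472, 502 and 512 CPM untreated (0.37 ± 0.08, adjusted p = 0.0121), Srsf9 at 85.6, 88.0 and 91.6 (0.35 ± 0.08, adjusted p = 0.0168) and Srsf1 at 625, 589.5 and 691 (0.28 ± 0.09, adjusted p = 0.048). In each, all 1250 ppm libraries lay above all untreated ones. Srsf5 was lower than in the untreated libraries, which had 375, 439 and 438 CPM (-0.48 ± 0.15, adjusted p = 0.0499). Without untreated replicate 1 or 2 the count was 1, Hnrnpdl. It was 2 without 1250 ppm replicate 1 or 5 (Hnrnpdl and Hnrnpa0) and 3 without 1250 ppm replicate 3 or 4 (these and Srsf9), and Srsf5 was also lost without untreated replicate 3. With these 2 groups alone in the fit it was 9. With no filter on low counts the calls of Srsf1 and Srsf5 ended, and that of Srsf1 also without genes over 1% of a library.

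At 10000 ppm 2 members were called against wild type, both lower, where 1.27% of all genes were called and 0.315% were lower. Beside Hnrnpdl this was Srsf6, a regulator of tau exon usage among others, at 408, 422 and 448 CPM untreated and 366, 312, 351 and 324 CPM at 10000 ppm, with no overlap (-0.35 ± 0.08, adjusted p = 0.049). Without 10000 ppm replicate 1, 2 or 4 or untreated replicate 1 the call of Srsf6 ended and 1 member was called. Without untreated replicate 2 or 3, 0 were. The call of Srsf6 also ended with RLE factors, either other filter on low counts, or without genes over 1% of a library. With 10000 ppm replicate 2 left out, Hnrnpdl was at -0.58 (adjusted p = 0.0407), Srsf6 at -0.31 (adjusted p = 0.132) and Hnrnph1 at -0.24 (adjusted p = 0.225). In that fit 0.25% of all genes were called. Hnrnph1 had the next smallest p, at 454, 447 and 428 CPM untreated and 378, 334, 383 and 378 CPM at 10000 ppm (-0.28 ± 0.09, adjusted p = 0.0861). At 2500 ppm Hnrnpdl was the 1 call, where 0.487% of all genes were called and 0.142% were lower, and without 2500 ppm replicate 1 Srsf6 was called too. Srsf6 (-0.30 ± 0.07, adjusted p = 0.0708) and Hnrnpd (-0.31 ± 0.11, adjusted p = 0.184) had the next smallest p there, with Hnrnpd at 407, 425 and 414 CPM untreated and a lowest value of 290.2, a median of 325 and a highest value of 390.3 CPM at 2500 ppm.

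Markers of other cells moved with the comparisons against wild type. B cell markers were higher at each dose (3 of 4, Cd79a and Pax5 among them), with Pax5 at 0.0199 to 0.646 CPM untreated, 5.12 to 7.10 at 1250 ppm, 1.40 to 11.5 at 2500 ppm and 2.38 to 17.1 at 10000 ppm. The sum of the B cell list was again mostly Ptprc, at 269.7 to 336 CPM untreated and 238 to 530.0 CPM over the dosed libraries. The erythroid marker Alas2 was higher at 10000 ppm (1 of 3 tested), with sums of 7.81 to 32.1 untreated and 21.2 to 300.3 CPM. Macrophage markers went in both directions. Cd5l, C1qa and C1qb, made by resident macrophages, were higher at 1250 ppm (3 of 6, with none lower), and Cd5l was at 0.0417 to 0.199 CPM untreated and 1.56 to 24.8 CPM at that dose. Their sum, 350.1 to 448 CPM untreated and 84.5 to 330 CPM dosed, was mostly Vcam1, at 333 to 438 CPM untreated and 96.5 to 158 CPM at 1250 ppm, which was not called. No macrophage, B cell or erythroid marker was at 0 in all libraries of a group, and the part of these cells in the differences was not tested.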

How the data were processed

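The authors deposited raw counts per gene for 32 libraries, in 1 table of 27728 genes. Reads were mapped with HISAT2 2.1.0 to Ensembl GRCm38, per the series' design text. How reads were counted, with which annotation, strand setting and gene filter, is not given in the sources used here. Members and lists were chosen with earlier results of these data known.

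Counts were tested with edgeR 4.0.16 (quasi-likelihood, TMM, filterByExpr) in R 4.3.3, and p-values were adjusted by Benjamini-Hochberg over all genes tested. Batch A (9 libraries), all 15 fetal libraries, 17 adult libraries and 14 dosed libraries were fitted separately. The text prints the log2 fold change ± its standard error. A lack of overlap between groups describes the libraries of the named gene. The share of all genes without overlap is given only for S34F and beside Srsf5. CPM were scaled by TMM over all libraries, and log2 CPM used a prior count of 2. Exon lengths came from GENCODE annotation of GRCm38. Totals of 26588099 to 71251200 counts leave little counting error in members other than Srsf12. Reads shared with pseudogenes or paralogs (Hnrnpa1, and Hnrnph1 with Hnrnph2) make those levels uncertain. On simulated counts, the share of 1.5-fold and 3-fold changes recovered was 62% and 95% for homozygous against flox control (12678 genes), 44% and 91% for S34F (14938 genes, with 6.9% of calls false), 36% and 85% for 10000 ppm against wild type (13338 genes) and 47% and 94% for the dose slope (12849 genes). Each fold was given to 100 genes with a mean of at least 50 counts, a smaller share than the 41.0% called in the real homozygous comparison. Counts were drawn from the fitted spread, so for S34F the simulation assumes that the single control varies like other libraries. Members called in homozygous against flox control changed by less than 1.5-fold, a size that was not simulated. Named genes were up to 8 called members per direction by size of change, or the 3 with the smallest p where fewer than 3 were called, and up to 3 per direction in each partner list. Some genes of the partner and marker lists are not reported here by name. DESeq2 1.42.0, RLE factors, 3 other gene filters, other fits, a replicate block and leaving out each library were tried as alternatives. All 46 pairs of replicates differed by more than counting error.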

Additional observations from a re-analysis of the deposited data

Results flagged for a closer look

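A test for 1 library far from the rest of its group was made in 100 sets of a member and a group of 4 to 6 libraries. It picked out 11, where chance gives about 1 in 20, or 5. The 10000 ppm replicate 2 was the lowest of its 4 libraries in 5 of them, with Srsf10 at 119.9 CPM (others 158.1 to 159.6), Srsf1 at 529 CPM (637 to 647), Hnrnph1 at 334 CPM (378 to 382.5), Hnrnph2 at 120.6 CPM (141 to 144) and Hnrnph3 at 31.4 CPM (39.2 to 40.03). This is the library with the highest T cell and erythroid marker sums of its group.

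The other 6 were spread over 5 libraries. At 10000 ppm, Hnrnpa0 was lowest in replicate 3, at 488 CPM (others 521.6 to 527), and Hnrnpf was highest in replicate 1, at 478 CPM (414.5 to 423). At 1250 ppm, Hnrnpa1 was lowest in replicate 5, at 919 CPM (979.8 to 988). Replicate 3 at that dose had the highest Hnrnph3, at 49.7 CPM (40.3 to 41.7), and the lowest Srsf7, at 216 CPM (227 to 228). At 2500 ppm, Srsf7 was highest in replicate 4, at 232 CPM (190.3 to 199).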

How the results depend on the processing

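Under the alternatives, of 944 values of single members 729 kept their direction and their side of the threshold, 206 lost and 9 gained a call, and none reversed. Except without 10000 ppm replicate 2, the share of all genes called in these fits is not given. A lower count of members can therefore go with fewer calls over all genes. The counts of called members that moved by over 1.5 times were these. Homozygous against flox control (13): 1 with the hepatocyte score, and 9 to 14 leaving out 1 library. Heterozygous against flox control (0): 1 with DESeq2 and 1 with no filter, and 0 leaving out 1 library. Homozygous against heterozygous (15): 9 to 15 leaving out 1 library. S34F (1): 2 with DESeq2, and 0 leaving out each S34F library. The dose of 10000 ppm against wild type (2): 1 with RLE factors, no filter, a mean of at least 50 counts or without genes over 1% of a library, 0 with only the compared groups, and 0 to 2 leaving out 1 library. For 2500 ppm against wild type (1) it was 2 with DESeq2, 0 with only the compared groups, and 0 to 2. For 1250 ppm against wild type (5) it was 3 with no filter, 9 with only the compared groups, and 1 to 4. For 10000 against 1250 ppm (7) it was 4 with no filter, 4 without abundant genes, 2 with only the compared groups, and 4 to 7. For 2500 against 1250 ppm (2) it was 6 with DESeq2, 4 with a mean of at least 50 counts, 1 without abundant genes, 0 with RLE factors, no filter or only the compared groups, and 0 to 5. For the dose slope (3) it was 6 with DESeq2, 1 with no filter, 1 without abundant genes, and 0 to 6. Where a single library was left in an arm it was assumed to vary like the others.

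Whether replicate numbers pair the samples was not settled by the correlation of deviations. In batch A it was over 0.1 in 1 of 7 same-number pairs and 4 of 20 others. In the adults it was over 0.1 in 6 of 19 same-number pairs and 20 of 87 others. The highest adult value, 0.52, was that of replicate 4 at 10000 and 2500 ppm. Best correlation with the own number was seen in 5 of 8 and 7 of 16 libraries, and the chance level of these counts was not worked out. With a replicate block the counts were 8 for homozygous against flox control, 10 for homozygous against heterozygous, 0 for S34F, 1 for 10000 ppm and 1 for 1250 ppm against wild type, 4 for 10000 against 1250 ppm, 0 for 2500 against 1250 ppm and 0 for the slope. Depth limits Srsf12, with at most 12 counts in a library.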
